A study of Sus scrofa with 8 samples.

Results

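The SOX genes SOX2, SOX4, SOX9, SOX11 and SOX17 were followed through a pig (Sus scrofa) differentiation from pluripotent stem cells to lung progenitor organoids. The 5 genes were taken by name from the deposited table, which holds 25578 genes. Poly(A) RNA was sequenced at 4 stages with 2 libraries each: lung progenitor organoids (LPO), anterior foregut endoderm (AFE), definitive endoderm (DE) and pluripotent stem cells (PSC). The labels give each library its stage and a number, and no cell line, clone, treatment, time or animal. Whether a stage's libraries are separate cultures is not said, so the p-values measure the spread between these libraries, which may be technical. All of them are bulk libraries, in which fewer cells of a type and less RNA per cell cannot be told apart.

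SOX proteins bind DNA through an HMG box related to that of SRY, and most act with a partner factor. SOX2, of subgroup B1, works with POU5F1 in pluripotent cells and later marks foregut and the conducting airways. SOX17, of subgroup F, specifies definitive endoderm. SOX4 and SOX11, of subgroup C, are broadly used in progenitors, neurons and mesenchyme. SOX9, of subgroup E, drives cartilage formation and, in mouse lung, marks the distal tips of the branching epithelium.

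The stage labels could be set against 4 defining genes. POU5F1, the pluripotency factor, stood at 3063 and 3457 FPKM in PSC, 259 and 253 in DE, 0.66 and 0.50 in AFE, and 0 and 0.04 in LPO. FOXA2, an endoderm factor, had 3.48 and 4.02 FPKM in PSC, 115 and 113 in DE, 36.4 and 32.6 in AFE, and 20.7 and 22.2 in LPO. NKX2-1, the factor that marks the lung field, was listed at 0 in PSC and DE and had 7.94 and 7.62 FPKM in AFE and 18.6 and 18.9 in LPO. NANOG, a further pluripotency factor, had 36.6 and 34.1 FPKM in PSC and 1.97 and 3.91 in DE. The libraries held 36004372 to 67566269 counts, or about 9001093 to 16891567 read pairs, with the PSC libraries the shallowest. FPKM summed to 345563 and 347824 in LPO and to 439098 to 467008 elsewhere, and the TMM factors that scale the counts were 1.27 and 1.26 in LPO against 0.901 to 0.954 elsewhere. A rise in LPO is therefore smaller from scaled counts than from FPKM, and a fall in LPO is larger.

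The table places SOX2 on chromosome 13 (119668476 to 119669435, plus strand), SOX4 on chromosome 7 (16891319 to 16892752, plus) and SOX11 on chromosome 3 (129798854 to 129800197, minus). SOX9 lies on chromosome 12 (8642158 to 8647315, minus) and SOX17 on chromosome 4 (76854150 to 76857148, minus). No source used here gives the genome build of these positions. None of the 5 overlaps another gene of the table. The lengths that turn counts into FPKM were inferred, taking the whole spans of SOX4 (1434 bases) and SOX11 (1344 bases) as theirs. The ratio of these 2 lengths held. On that assumption SOX2 came to 960 bases, its whole span. All 3 spans are multiples of 3, as of a coding sequence without UTRs. SOX9 came to 3634 bases and SOX17 to 2424, shorter than their spans of 5158 and 2999 bases. FPKM levels of different SOX genes may thus be relative to gene models of unequal completeness, whereas changes of 1 gene between stages are not.

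A different member led at each stage. By mean FPKM the order was SOX11, SOX2, SOX4, SOX9 and SOX17 in PSC. It was SOX17, SOX4, SOX11, SOX9 and SOX2 in DE. In AFE it was SOX4, SOX11, SOX17, SOX2 and SOX9, and in LPO it was SOX9, SOX4, SOX2, SOX11 and SOX17. The leaders averaged 11.48 ± 0.785 FPKM (SOX11 in PSC), 87.4 ± 6.18 (SOX17 in DE), 14.0 ± 3.196 (SOX4 in AFE) and 52.7 ± 2.37 (SOX9 in LPO; SD, n = 2 for each). Neighbours in these orders did not overlap between libraries, except for SOX4 and SOX9 in PSC and SOX17 and SOX2 in AFE, while SOX4 and SOX2 in LPO met at 38.37 FPKM. AFE was the stage at which the 5 lay closest, from 3.85 FPKM for SOX9 to 14.0 FPKM for SOX4.

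**Figure D1:**
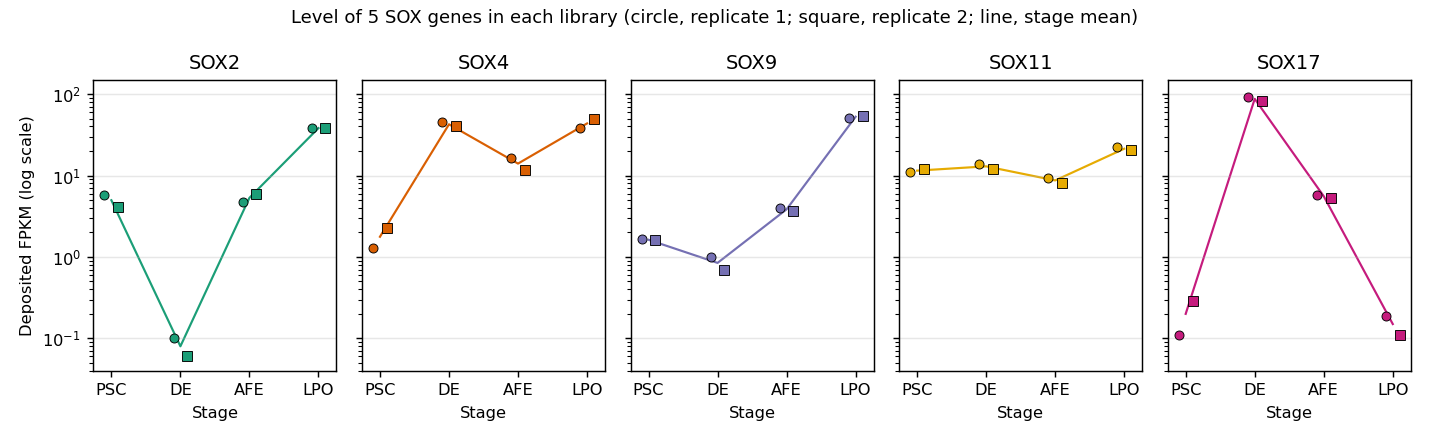
Deposited FPKM (log scale) of SOX2, SOX4, SOX9, SOX11 and SOX17 in each of 8 libraries, in protocol order; circles and squares are replicates 1 and 2 and lines join stage means. SOX17 peaked in DE at 91.7 and 83.0 FPKM, SOX2 dipped there to 0.10 and 0.06 FPKM, and SOX9 was highest in LPO at 51.01 and 54.36 FPKM.

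SOX2 was lost in endoderm and came back in foregut. Its counts were 246 and 149 in PSC, 7 and 4 in DE, 328 and 396 in AFE and 2430 and 2437 in LPO. In FPKM these were 5.83 and 4.11 in PSC, 0.10 and 0.06 in DE, 4.78 and 5.86 in AFE, and 38.06 and 38.37 in LPO. Both DE libraries lay below all others and both LPO libraries above all others, while the AFE and PSC ranges overlapped. How many of all genes also lack overlap between stages was not counted, so here and below it sets no member apart. In edgeR's quasi-likelihood test with Benjamini-Hochberg adjustment over 19346 genes, SOX2 fell in DE against PSC by 5.75 ± 0.33 on the log2 scale (SE; adjusted p = 4.4e-06). The DE libraries hold about 3 read pairs of SOX2 against 99 in PSC, so the ratio is 51.3-fold lower with a counting interval of 17.0 to 253 (95%, exact). SOX2 rose in AFE against DE, from counts of about 181 against 3 read pairs, by a ratio of 57.2 (19.3 to 280). It rose a further 5.10-fold in LPO against AFE (edgeR adjusted p = 3.7e-05). AFE against PSC was not called (log2 change 0.18, 95% interval -0.32 to 0.68, edgeR adjusted p = 0.508). LPO exceeded PSC 5.78-fold, so the highest SOX2 level of the protocol was in organoids and not in stem cells.

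Partners and targets of SOX2 in pluripotent cells fell more often than they rose in DE, and again in AFE, where SOX2 came back. Of 12 listed genes, 10 are in the table and 9 were tested. Over all genes tested, 30.8% rose and 23.0% fell in DE against PSC. In AFE against DE 17.9% rose and 17.4% fell, and in LPO against AFE 30.2% rose and 29.6% fell. In DE against PSC 2 of the 9 rose and 5 fell (median log2 change -2.68, against 0.08 over all genes tested). PRDM14, a germ-cell and pluripotency regulator, was at 0 in DE against 30.7 FPKM in PSC and was at least 314-fold lower (floor of 12 counts per library). LIN28A, which blocks let-7 maturation, rose instead, to 38.1 FPKM in DE against 5.05 in PSC (7.72-fold, edgeR adjusted p = 2.4e-05). The next step, AFE against DE, had 1 rise (2 without any 1 PSC library) and 4 falls while SOX2 rose (median -1.83 against 0.00). The rise was that of ESRRB, a nuclear receptor of naive pluripotent cells, named here after its values were seen, with 2.68 and 2.77 FPKM in AFE against 0.16 and 0.03 in DE (edgeR adjusted p = 0.0014). The last, LPO against AFE, had 2 rises and 3 falls (median 0.00 against 0.09), with 1 rise without LPO replicate 1. LIN28A fell in LPO to 0.13 FPKM against 10.4 in AFE, and KLF4, also an epithelial factor, rose to 8.39 FPKM against 0.265 in AFE (22.1-fold, edgeR adjusted p = 1.5e-05). Like SOX2, KLF4 had its lowest FPKM in DE and its highest in LPO, with 1.58 and 2.70 FPKM in PSC, 0.12 and 0.16 in DE, 0.28 and 0.25 in AFE, and 8.04 and 8.74 in LPO, though AFE against DE was not called (edgeR adjusted p = 0.0783).

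SOX17 appeared with endoderm and left before the organoid stage. It had 12 and 27 counts in PSC, 14531 and 12995 in DE, 1013 and 902 in AFE, and 32 and 18 in LPO. The FPKM were 0.11 and 0.29 in PSC, 91.7 and 83.0 in DE, 5.84 and 5.29 in AFE, and 0.19 and 0.11 in LPO. DE stood above AFE, and AFE above both other stages, with no overlap, while LPO and PSC overlapped. SOX17 rose in DE against PSC by 8.81 ± 0.31 on the log2 scale (449-fold, edgeR adjusted p = 6.8e-07). The 2 PSC libraries hold about 10 read pairs in all, and the change was 8.22 without PSC replicate 1 and 9.64 without PSC replicate 2. In AFE against DE it fell 15.2-fold (edgeR adjusted p = 1.4e-05), and in LPO against AFE it fell a further 50.1-fold (edgeR adjusted p = 1.8e-06). Counting error alone puts this last ratio between 29.8 and 102, from about 12 read pairs in LPO against 479 in AFE. AFE remained 29.6-fold above PSC, with a log2 change of 4.89 that was 4.30 without PSC replicate 1 and 5.72 without PSC replicate 2. LPO against PSC was not called (log2 change -0.76, 95% interval -1.80 to 0.29, edgeR adjusted p = 0.163). Without PSC replicate 1 the same change was called lower in LPO (-1.35, edgeR adjusted p = 0.0158), and without PSC replicate 2 it was 0.07.

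Most of the endoderm factors listed around SOX17 rose in DE, and most fell in AFE. Among all genes tested, the shares rising and falling were 30.8% and 23.0% in DE against PSC and 17.9% and 17.4% in AFE against DE. They were 30.2% and 29.6% in LPO against AFE. All 14 listed factors were tested, and in DE against PSC 11 rose and 2 fell (median log2 change 3.79 against 0.08 over all genes). The falls, named here after their values were seen, were those of CER1, a secreted Nodal and Wnt antagonist, and GSC, an organizer factor. CER1 had 0.25 and 0.15 FPKM in DE against 8.84 and 7.96 in PSC, and GSC had 2.04 and 1.14 FPKM in DE against 7.70 and 6.31 in PSC. FOXA2 rose 31.2-fold to 114 FPKM in DE against 3.75 in PSC (edgeR adjusted p = 1.3e-07). At the foregut step, AFE against DE, 2 rose and 10 fell (median -2.97 against 0.00). HHEX, a factor of foregut, liver and thyroid, fell to 1.23 FPKM in AFE against 33.8 in DE (26.5-fold, edgeR adjusted p = 1.8e-05). EOMES, a mesendoderm factor that acts ahead of SOX17, was at 0 in AFE against 17.4 FPKM in DE, at least 307-fold lower, and FOXA2 fell to 34.5 FPKM in AFE against 114 in DE. The 2 rises there, named here after their values were seen, were those of FOXA1, a relative of FOXA2, and MIXL1. FOXA1 had 9.02 and 8.10 FPKM in AFE against 2.67 and 2.79 in DE (edgeR adjusted p = 3.8e-05). MIXL1 had 3.10 and 3.78 FPKM in AFE against 0.50 and 0.06 in DE. CXCR4, a chemokine receptor also named after its values were seen, had 17.5 and 16.6 FPKM in AFE against 15.7 and 11.2 in DE. It was not called (edgeR adjusted p = 0.117). At the organoid step, LPO against AFE, 2 rose and 8 fell (median -0.87 against 0.09). The rises numbered 0 without any 1 LPO library, and 1 without any 1 DE library or AFE replicate 2. FOXA2 stood at 21.4 FPKM in LPO against 34.5 in AFE (2.26-fold lower, edgeR adjusted p = 2.1e-05). FOXA2 thus kept 20.7 FPKM or more in every library after PSC, while SOX17 did not.

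Visceral endoderm and endothelium also express SOX17, and their markers were measured beside it. The lists share genes: SOX7 is in both, and FOXA3 and HNF4A are also among the endoderm factors above. Of all genes tested, 30.8% rose and 23.0% fell in DE against PSC. The shares were 17.9% and 17.4% in AFE against DE, and 30.2% and 29.6% in LPO against AFE. Visceral endoderm markers, of which 8 of 10 are in the table, summed to 8980 and 8788 FPKM in DE against 30.4 and 26.0 in PSC, and were 171 and 181 in AFE and 77.4 and 81.9 in LPO. APOA1, an apolipoprotein, carried most of the DE sum with 8911 and 8712 FPKM, whereas the yolk-sac genes TTR and CUBN were at 0 in DE. HNF4A had 46.94 and 51.95 FPKM in DE against 0 and 0.11 in PSC. FOXA3 had 18.37 and 21.29 FPKM in DE against 8.88 and 6.76 in PSC. Of the 8, 5 rose and 0 fell in DE against PSC, 0 rose and 4 fell in AFE against DE, and 1 rose and 3 fell in LPO against AFE, where 0 rose without any 1 LPO library and 2 rose without any 1 PSC library. The 10 endothelial markers summed to 22.3 and 14.0 FPKM in DE against 4.96 and 4.71 in PSC, and to 8.39 and 8.48 in AFE and 17.5 and 17.6 in LPO. Of these 10, 8 rose in DE against PSC, 2 fell in AFE against DE (1 fell without DE replicate 1 or AFE replicate 1), and 3 rose and 2 fell in LPO against AFE (1 fell without AFE replicate 1, AFE replicate 2 or LPO replicate 2, and 0 without LPO replicate 1). KDR alone had 11.7 and 6.33 FPKM in DE, 1.02 and 0.96 in AFE, and 6.75 and 5.94 in LPO. Its rise in LPO against AFE was not called in DESeq2's Wald test (adjusted p = 0.144). CDH5 was lower at that step, with 0.10 and 0.17 FPKM in LPO against 0.42 and 0.43 in AFE. ERG had 1.70 and 2.09 FPKM in LPO against 0.04 and 0.05 in AFE. EMCN had 2.28 and 2.51 FPKM in LPO against 0.19 and 0.20 in AFE. The part of either cell type in the SOX17 changes was not tested.

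SOX9 rose at both later steps, most at the last. Its counts were 262 and 220 in PSC, 238 and 161 in DE, 1038 and 945 in AFE and 12328 and 13068 in LPO. The FPKM were 1.64 and 1.61 in PSC, 1.00 and 0.69 in DE, 3.99 and 3.70 in AFE, and 51.01 and 54.36 in LPO, and no pair of stages overlapped. SOX9 fell 1.88-fold in DE against PSC (log2 change -0.91 ± 0.17 SE, edgeR adjusted p = 0.0024). It rose 4.71-fold in AFE against DE (edgeR adjusted p = 4.5e-05) and 9.73-fold in LPO against AFE (log2 change 3.28 ± 0.16 SE, edgeR adjusted p = 1.3e-06). Over the whole protocol LPO exceeded PSC 24.4-fold. The directions of its 3 consecutive steps are those of SOX2 at different sizes, and in log2 profile over the 8 libraries SOX9 was the member nearest to SOX2 (root mean square difference 1.64). The FPKM of SOX9 relative to that of SOX2 was 0.835 and 0.631 in AFE and 1.34 and 1.42 in LPO. Bulk RNA does not show whether the same cells held both.

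Foregut and lung factors listed around SOX2 and SOX9 were mixed at each step and mostly higher by the end. All 18 were tested, with 8 higher and 3 lower in DE against PSC (median log2 change 0.51 against 0.08). In AFE against DE 9 rose and 4 fell (median 0.55 against 0.00), and in LPO against AFE 10 rose and 3 fell (median 0.66 against 0.09). In LPO against PSC 15 rose and 3 fell (median 4.95 against 0.49). Shares of all genes tested that rose and fell were 30.8% and 23.0%, 17.9% and 17.4%, and 30.2% and 29.6% in the 3 consecutive steps. For LPO against PSC they were 41.5% and 28.8%. ETV5, a target of FGF signalling that accompanies SOX9 in mouse lung tips, rose to 17.3 FPKM in LPO against 1.51 in AFE (8.11-fold, edgeR adjusted p = 5.4e-07). Its relative ETV4 rose to 23.1 FPKM in LPO against 4.71 in AFE (3.47-fold). Both had their highest FPKM in PSC, with 22.97 and 24.0 for ETV5 and 51.85 and 35.29 for ETV4. In LPO these were 16.33 and 18.23 for ETV5 and 22.7 and 23.44 for ETV4. TP63, the basal-cell factor of SOX2-positive airways, rose to 1.63 FPKM in LPO against 0.13 in AFE (8.90-fold, edgeR adjusted p = 2.0e-04). IRX1, an Iroquois factor, went the other way, with 0.925 FPKM in LPO against 5.54 in AFE (8.39-fold lower). In the step before, IRX3 rose to 52.2 FPKM in AFE against 0.925 in DE and ID2 fell to 38.9 FPKM against 192.

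The cartilage genes that SOX9 binds were split. Of 13 listed, 12 were in the table and tested, with 3 higher and 4 lower in DE against PSC (median log2 change -0.89 against 0.08). AFE against DE gave 4 rises and 3 falls (median -0.62 against 0.00), and LPO against AFE gave 7 rises and 1 fall (median 1.49 against 0.09). Called genes were 58.3%, 58.3% and 66.7% of the 12 in these steps, against 53.8%, 35.3% and 59.8% of all genes tested. Of all genes, 30.8% rose and 23.0% fell in the first step, and 17.9% and 17.4% in the next. In the last, 30.2% rose and 29.6% fell. COL11A1, a fibrillar collagen, rose to 68.6 FPKM in LPO against 6.57 in AFE (7.42-fold, edgeR adjusted p = 2.4e-06), and COL9A3 to 16.3 FPKM against 0.255. COL2A1, the main cartilage collagen, was the one that fell: it had 23.3 FPKM in LPO against 70.2 in AFE (4.24-fold lower, edgeR adjusted p = 4.3e-06). At the step before, it had risen 89.8-fold, with 70.2 FPKM in AFE against 0.805 in DE. COL2A1 was thus highest in AFE, where SOX9 averaged 3.85 FPKM, and not in LPO, where SOX9 averaged 52.7 FPKM.

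Mesenchyme markers rose at the same step as SOX9, SOX2, SOX4 and SOX11. The 12 markers summed to 2808 and 2859 FPKM in LPO against 118 and 122 in AFE. The sums were 406 and 316 in DE and 267 and 267 in PSC. VIM alone made up 261 and 264 FPKM of the sums in PSC, 363 and 295 in DE, and 60.1 and 60.8 in AFE. No marker was at 0 in both LPO libraries. TWIST2 had 0 and 0.11 FPKM in LPO against 3.58 and 2.17 in PSC. In LPO against AFE 10 rose and 0 fell (median log2 change 3.84 against 0.09). POSTN, a matrix protein of fibroblasts, stood at 375 FPKM in LPO against 2.99 in AFE, PDGFRB, a pericyte and fibroblast receptor, at 67.3 against 1.51, and VIM at 966 against 60.5. In DE against PSC 9 rose and 0 fell (1 fell without any 1 library of AFE or LPO), and in AFE against DE 7 rose and 2 fell. Rising and falling shares over all genes tested were 30.2% and 29.6% in LPO against AFE and 30.8% and 23.0% in DE against PSC. For AFE against DE they were 17.9% and 17.4%. SOX4, SOX9 and SOX11 are also expressed in mesenchyme. How much of their RNA in LPO came from such cells was not tested.

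SOX4 rose with SOX17 but stayed. Its counts were 81 and 122 in PSC, 4205 and 3726 in DE, 1668 and 1185 in AFE and 3659 and 4632 in LPO. The FPKM were 1.29 and 2.25 in PSC, 44.9 and 40.2 in DE, 16.3 and 11.8 in AFE, and 38.4 and 48.8 in LPO. DE and LPO overlapped, AFE lay below both, and PSC lay lowest. SOX4 rose 24.7-fold in DE against PSC (log2 change 4.63 ± 0.30 SE, edgeR adjusted p = 8.0e-06) and fell 2.94-fold in AFE against DE (edgeR adjusted p = 0.0021). It rose 2.21-fold in LPO against AFE (edgeR adjusted p = 0.0043). LPO against DE was not called (log2 change -0.41, 95% interval -0.97 to 0.15, edgeR adjusted p = 0.173), and on FPKM the sign of that difference turned (0.03).

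SOX11 was the steadiest member. Its counts were 645 and 608 in PSC, 1208 and 1056 in DE, 898 and 763 in AFE and 1973 and 1830 in LPO. The FPKM were 10.92 and 12.03 in PSC, 13.8 and 12.2 in DE, 9.34 and 8.07 in AFE, and 22.1 and 20.6 in LPO. LPO was highest and AFE lowest in FPKM, while PSC and DE came as near as 12.03 and 12.16 FPKM. DE against PSC was not called (log2 change 0.21, 95% interval -0.11 to 0.53, edgeR adjusted p = 0.232). In AFE against DE SOX11 fell 1.44-fold (log2 change -0.52 ± 0.14 SE, edgeR adjusted p = 0.02005). This call was lost without DE replicate 1 (-0.43, edgeR adjusted p = 0.0878) and without AFE replicate 2 (-0.43, edgeR adjusted p = 0.120). In LPO against AFE it rose 1.74-fold (0.80 ± 0.14, edgeR adjusted p = 0.0013), a call that no left-out library ended. LPO was 1.40-fold above PSC (log2 change 0.48, edgeR adjusted p = 0.0138), but not past the threshold without PSC replicate 1 (0.40, edgeR adjusted p = 0.0608), LPO replicate 1 (0.38, 0.120) or LPO replicate 2 (0.47, 0.0650). AFE against PSC (log2 change -0.31, edgeR adjusted p = 0.0859) and LPO against DE (0.27, edgeR adjusted p = 0.112) were not called, and both were called on FPKM values.

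The ratio of the subgroup C members therefore turned over at the first step. SOX4 relative to SOX11 in FPKM was 0.118 and 0.187 in PSC, 3.26 and 3.31 in DE, 1.74 and 1.46 in AFE, and 1.74 and 2.37 in LPO. Of 12 neural genes tied to SOX4 and SOX11, 11 are in the table and 10 were tested. At the step where SOX4 rose and SOX11 was not called, DE against PSC, 1 of them rose (0 rose without PSC replicate 1) and 4 fell (median log2 change -0.69 against 0.08). TUBB3, a neuronal tubulin, had 61.5 FPKM in DE against 131 in PSC (2.07-fold lower, edgeR adjusted p = 1.2e-04) and 3.60 FPKM in AFE against 61.5 in DE. AFE against DE had 2 rises and 4 falls (median -0.30 against 0.00), and LPO against AFE had 7 rises and 1 fall (median 2.17 against 0.09). Across all genes tested, 30.8% rose and 23.0% fell in DE against PSC. Those shares were 17.9% and 17.4% in AFE against DE, and 30.2% and 29.6% in LPO against AFE. NCAM1, an adhesion molecule of neurons and mesenchyme, rose to 27.0 FPKM in LPO against 4.25 in AFE (4.51-fold), and TEAD2, a Hippo pathway factor and SOX4 target in mouse, fell to 39.0 FPKM against 46.9 (1.69-fold, edgeR adjusted p = 1.7e-04).

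Over all pairs of stages, 24 of 30 tests on the 5 members were called. The comparisons of a pair of stages share libraries with one another and are given side by side. In DE against PSC 2 members were higher, 2 lower and 1 not called, where 53.8% of the genes tested were called (30.8% higher, 23.0% lower). In AFE against DE 2 were higher and 3 lower, with 35.3% of all genes called (17.9% higher, 17.4% lower). In LPO against AFE 4 were higher and 1 lower, with 59.8% of all genes called (30.2% higher, 29.6% lower). On log2(FPKM + 0.1) values the higher share of the calls in that step was 66.6% and not 50.5%, and in LPO against DE 64.9% and not 50.4%. In LPO against PSC 4 were higher, 0 lower and 1 not called, with 70.3% of all genes called (41.5% higher, 28.8% lower). AFE against PSC had 3 higher and 0 lower among the members, and 56.8% called over all genes (32.8% higher, 24.0% lower). LPO against DE had 2 higher and 1 lower, and 62.7% called over all genes (31.6% higher, 31.1% lower). All 5 members differed among the 4 stages in the F test, with edgeR adjusted p from 1.6e-07 for SOX17 to 0.0045 for SOX11, as did 79.2% of all genes tested. Since 35.3% to 70.3% of all genes were called in these comparisons, a call by itself sets no member apart. The members differed among themselves in the size and order of their changes. With 2 libraries on each side the smallest exact permutation p, 2-sided, is 0.333, so each call rests on the spread shared over all genes and stages.

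**Figure D2:**
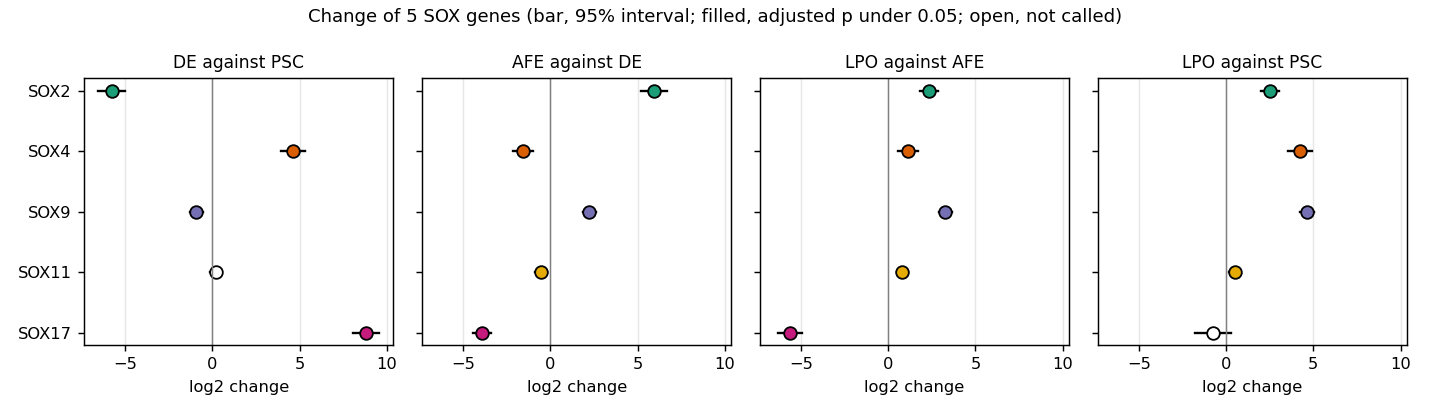
log2 change of the 5 members from the edgeR fit in the 3 consecutive steps and in LPO against PSC; bars are 95% intervals and open points were not called at an adjusted p of 0.05. SOX2 and SOX17 moved in opposite directions in each step, by -5.75 and 8.81 in DE against PSC, 5.93 and -3.92 in AFE against DE, and 2.35 and -5.65 in LPO against AFE.

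The summed FPKM of the family was higher in DE and LPO than in PSC and AFE, and in DE this sum was carried by SOX17 and SOX4. Of 19 SOX genes looked for, 18 are in the table (SOX15 was not analysed here), and their FPKM summed to 38.0 and 34.4 in PSC, 177 and 156 in DE, 68.1 and 61.6 in AFE, and 178 and 195 in LPO. SOX17 made up 51.9% and 53.1% of that sum in DE and SOX4 25.4% and 25.7%. Without SOX17 and SOX4 the other 16 genes summed to 36.6 and 31.8 FPKM in PSC, 40.1 and 33.2 in DE, 45.99 and 44.6 in AFE, and 139 and 146 in LPO. SOX9 made up 28.7% and 27.9% in LPO, SOX4 21.6% and 25.1%, and SOX2 21.4% and 19.7%. SOX11 made up 28.7% and 35.0% in PSC. By subgroup, SOXF was highest in DE with 93.3 and 83.7 FPKM against 0.21 and 0.77 in PSC. In FPKM, SOXC was highest in LPO with 75.0 and 88.2, against 60.4 and 53.7 in DE and 30.2 and 25.0 in AFE. Whether the SOXC sum in LPO exceeds that in DE on scaled counts was not tested. There SOX4 (log2 change -0.41) and SOX11 (0.27) were not called in LPO against DE. SOX12 had 14.6 and 18.8 FPKM in LPO against 1.80 and 1.33 in DE. SOXE was also highest in LPO, with 52.5 and 55.7 FPKM against 6.26 and 5.98 in AFE.

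**Figure D3:**
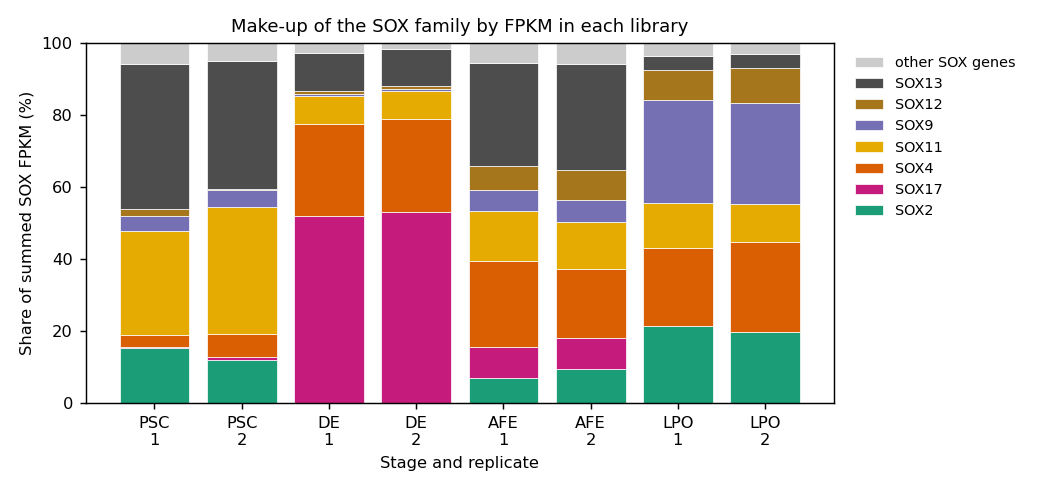
Share of the summed SOX FPKM (percent) held by each gene in each of the 8 libraries. SOX13 and SOX11 hold most of PSC, SOX17 and SOX4 most of DE, and SOX9, SOX4 and SOX2 most of LPO, where SOX13 falls to 3.81% and 3.98%.

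A gene that is no member, SOX13 of subgroup D, had the highest SOX level in PSC and AFE. Its FPKM were 15.3 and 12.2 in PSC, 18.5 and 16.4 in DE, 19.4 and 18.2 in AFE, and 6.77 and 7.76 in LPO. It fell 3.64-fold in LPO against AFE (log2 change -1.86, edgeR adjusted p = 7.0e-06), the step at which SOX2, SOX4, SOX9 and SOX11 rose. Its 1.31-fold rise in DE against PSC (edgeR adjusted p = 0.0311) was lost with DESeq2 size factors (edgeR adjusted p = 0.147) and without any 1 library other than PSC replicate 1 or DE replicate 2 (edgeR adjusted p = 0.0520 to 0.149). SOX12, of subgroup C, was higher at each stage than at the one before, with 0.74 and 0.14 FPKM in PSC, 1.80 and 1.33 in DE, 4.55 and 5.16 in AFE, and 14.6 and 18.8 in LPO. Its rise in DE against PSC (log2 change 1.82) was 3.47 without PSC replicate 1 and 1.12 without PSC replicate 2, and was lost without DE replicate 1 or LPO replicate 2. The call was also lost in AFE against DE without any 1 library of DE, AFE or LPO, and in LPO against AFE without DE replicate 1 or any 1 library of AFE or LPO (edgeR adjusted p = 0.0506 to 0.224). The table holds 13 further SOX genes, of which 10 were tested, and SOX1, SOX14 and SOX30 were too low. Of all genes tested, 30.8% rose and 23.0% fell in DE against PSC, 17.9% and 17.4% in AFE against DE, and 30.2% and 29.6% in LPO against AFE. In DE against PSC 4 of the 10 rose and 0 fell, in AFE against DE 2 rose and 0 fell, and in LPO against AFE 3 rose and 2 fell. With 1 library left out the rises numbered 2 to 5, 1 to 3 and 0 to 3 in these steps, and the falls 0 to 1, 0 to 1 and 2. The 3 rises in LPO against AFE, of SOX5, SOX12 and SOX21, were all lost without AFE replicate 2, LPO replicate 1 or LPO replicate 2, and 1 was left without AFE replicate 1. The rises numbered 2 in DE against PSC without DE replicate 1 or LPO replicate 2, and 1 in AFE against DE without DE replicate 2 or any 1 library of AFE or LPO. SOX8, of subgroup E like SOX9, ran against it in the last step, with 1.32 and 1.28 FPKM in LPO against 2.18 and 2.19 in AFE (2.36-fold lower, edgeR adjusted p = 0.0062). Of the partners of SOX9 in cartilage, SOX5 had 2.09 and 1.58 FPKM in LPO against 0.44 and 0.20 in AFE. SOX6 had 0.35 and 0.35 FPKM in LPO against 0.13 and 0.12 in AFE, and was not called (edgeR adjusted p = 0.332). It was called with counts divided by 4 (edgeR adjusted p = 0.0476) and in a fit of only the 4 libraries compared. The change was also called on log2(FPKM + 1), + 0.5 and + 0.1 values. SOX7, an endothelial and endodermal relative of SOX17, was at 0 in PSC and had 0.59 and 0.39 FPKM in DE, at least 5.13-fold higher (edgeR adjusted p = 4.6e-04). SOX3, SOX10 and SOX18 were not called in the F test (edgeR adjusted p = 0.429, 0.769 and 0.668) and stayed under 1 FPKM throughout.

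**Figure D4:**
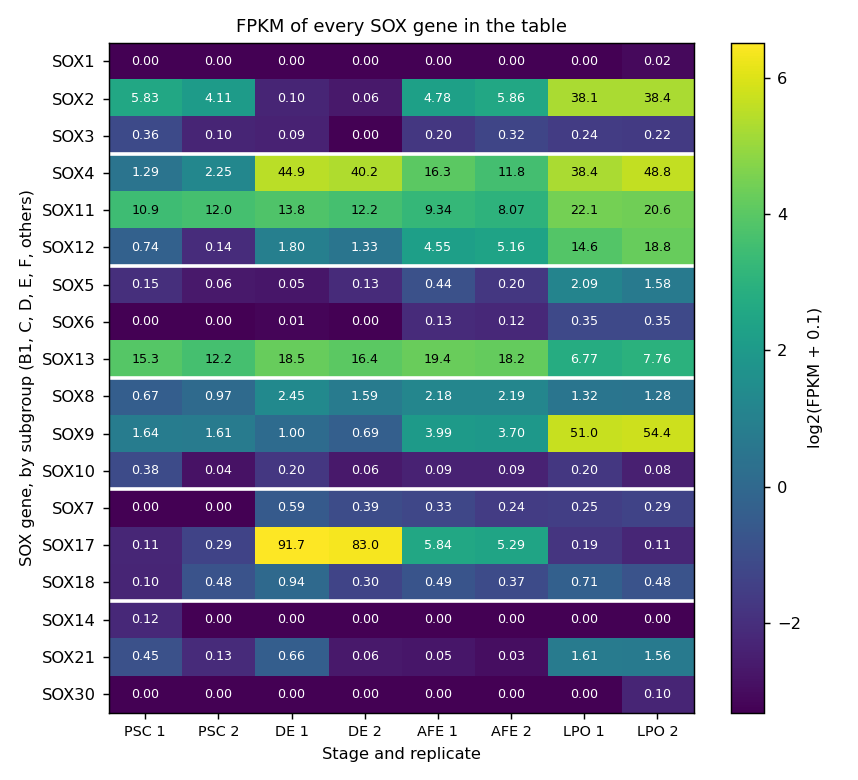
Deposited FPKM of all 18 SOX genes in the table in each of the 8 libraries, grouped by subgroup; colour is log2(FPKM + 0.1) and the printed values are FPKM. Beside the 5 members, SOX13 is high in all libraries but lowest in LPO (6.77 and 7.76), and SOX12 is highest in LPO (14.6 and 18.8).

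The genes nearest in profile to each member were found by the root mean square difference of mean-centred log2 CPM (counts scaled to library size, prior count 2) over the 8 libraries, among 14206 genes with a symbol. Nearest to SOX9 were DAAM2, a formin of Wnt signalling (0.196), COL11A1 (0.265), TGFBR2, the type II TGF-beta receptor (0.303), SESN3 (0.317) and CPD (0.341). Nearest to SOX4 were PHLDA1 (0.249), UNC5CL (0.318), ECE1, the endothelin-converting enzyme (0.322), TNXB (0.341) and BNIP3, a mitophagy protein (0.342). BNIP3 had mean levels of 42.8 FPKM in PSC, 802 FPKM in DE, 259 FPKM in AFE and 924 FPKM in LPO. Nearest to SOX2 were TENM2 (0.684), IRX2, an Iroquois factor (0.707), DPP10 (0.762), IGFBP3, an IGF-binding protein (0.766), and MECOM (0.919). IGFBP3 had 13.7 FPKM in PSC, 0.600 FPKM in DE, 6.29 FPKM in AFE and 90.5 FPKM in LPO. SOX17 had no gene as close, with A1CF at 1.195, SPON1, a matrix protein, at 1.27 and TNNC1, the slow troponin C, at 1.27, followed by ARPP21 and NAALAD2. SPON1 had mean levels of 0.270 FPKM in PSC, 70.7 FPKM in DE, 2.03 FPKM in AFE and 0.690 FPKM in LPO. Around SOX11, which varied least, the smallest distances were found, with CLASP2 at 0.0689, TMX3 at 0.0843 and EXOC5, GNPTAB and DOCK9 under 0.1. Among the members themselves the widest distance was 6.58, between SOX2 and SOX17.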

How the data were processed

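Libraries were made from oligo(dT)-selected RNA with dUTP second strands, per the labels' protocols. The submitters' processing notes name edgeR, DESeq2, StringTie 2.1.6, HISAT2 2.2.1 and cutadapt 1.9. The genome build and the counting settings are not given in the sources used here. The authors' deposited table holds expected counts (estimated counts per gene, whole numbers, about 4 per read pair) and FPKM, which the authors scaled by length and library size. Its headers call PSC and LPO by other words.

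After filterByExpr 19346 genes were left, and their counts were TMM-scaled and fitted over 8 libraries with stage as the only term (R 4.3.3, edgeR 4.0.16, glmQLFit and glmQLFTest, 4 residual degrees of freedom). The threshold for a call was 0.05 after Benjamini-Hochberg adjustment. Figures used matplotlib 3.10.9. Alternatives used limma 3.58.1 and DESeq2 1.42.0. A value of 0 was compared at 12 counts per library. Intervals on read pairs cover counting error only. The fit was tested on simulated data.

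Genes named are the members, the other SOX genes, the label checks, up to 4 called genes per list and comparison with the smallest adjusted p, and the 5 nearest profiles. Some further list genes were named after their values were seen. Members and lists were chosen with earlier results of these data known.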

Additional observations from a re-analysis of the deposited data

How the results depend on the processing

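Of 540 alternative values for the members, 522 kept the call or the lack of one, 13 gained a call, 5 lost one and 0 reversed, and no count of called genes moved by over 1.5 times. SOX11 in AFE against PSC was called with genes kept at 1 FPKM (-0.37), DESeq2 size factors (-0.49), DESeq2's Wald test (-0.49), and limma on log2(FPKM + 1), + 0.5 and + 0.1 (-0.36, -0.38 and -0.40). SOX11 in LPO against DE was called with genes kept at 1 FPKM (0.37) and on the same 3 FPKM scales (0.68, 0.70 and 0.72). DESeq2's Wald test called SOX17 in LPO against PSC (-0.88), and a fit of only the 4 libraries compared called SOX4 in LPO against DE (-0.41). The cause was not tested. With 1 library left out, SOX17 in LPO against PSC ranged from -1.35 to 0.073, SOX11 in LPO against PSC from 0.38 to 0.57 and SOX11 in AFE against DE from -0.63 to -0.43. Without PSC replicate 2 the uncalled SOX2 change in AFE against PSC turned to -0.03. The gene with the highest FPKM of each stage kept its place on every scale and in each library alone. A lone library was assumed to vary like the other groups.

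Same-numbered libraries did not deviate together (correlations -0.0136 to 0.0078), so the numbers were not taken as pairs. With a replicate block 9759, 6137, 10788, 12596, 10203 and 11187 genes were called, in the order in which the 6 comparisons are given with their shares of called genes above, and no member's call changed. Of 2473 alternative values for other named genes, 88 lost a call, 14 gained one and none reversed. Leaving out libraries for the counts of each gene list was chosen after seeing the data. Depth limits SOX2 in DE and SOX17 in PSC and LPO, where the libraries of a stage together hold about 3, 10 and 12 read pairs.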

Other observations

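A further pair of marker lists covers cell types in which SOX genes are also active. For both lists, the shares over all genes tested were 30.8% higher and 23.0% lower in DE against PSC. They were 17.9% and 17.4% in AFE against DE, and 30.2% and 29.6% in LPO against AFE. Neural crest markers, with SOX10 as the defining SOX gene, had 9 of 10 genes in the table, all tested. They summed to 39.3 and 41.2 FPKM in LPO against 19.96 and 19.4 in AFE. The sums were 32.8 and 34.8 in DE and 32.3 and 29.5 in PSC. Most of each sum came from ERBB3, or in LPO from ERBB3 and SNAI2. ERBB3 had 31.46 and 28.95 FPKM in PSC, 30.56 and 33.53 in DE, 15.47 and 14.67 in AFE, and 20.03 and 20.96 in LPO. SNAI2 had 16.7 and 17.92 FPKM in LPO. All other markers of this list stayed at 0.93 FPKM or less in every library. SOX10 itself stayed at 0.38 FPKM or less in every library, and FOXD3, an early crest factor, was at 0 in LPO. In LPO against AFE 2 rose and 0 fell, and 1 of the rises was SNAI2, an EMT factor that mesenchyme also expresses (4.36-fold, edgeR adjusted p = 0.0030). The other, PAX7, a crest and muscle factor, was lost without LPO replicate 2 (edgeR adjusted p = 0.113). In DE against PSC 1 rose and 1 fell, and the fall, that of FOXD3, was lost without any 1 library of PSC, DE or LPO (edgeR adjusted p = 0.0517 to 0.0782). In AFE against DE 1 rose and 1 fell, and the rise, that of TFAP2A, a crest and surface ectoderm factor, was lost without any 1 library of DE, AFE or LPO (edgeR adjusted p = 0.0725 to 0.138). Without any 1 PSC library 2 rose in DE against PSC and 3 in AFE against DE.

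Hindgut markers had 8 of 8 genes in the table and 7 tested. Their summed FPKM was 2.81 and 2.03 in PSC, 25.7 and 26.2 in DE, 13.7 and 17.0 in AFE and 17.2 and 16.6 in LPO. VIL1 alone made up 20.89 and 22.58 FPKM of the sums in DE. CDX2, the hindgut homeobox factor that SOX2 opposes in mouse, was at 0 in PSC, averaged 1.21 FPKM in DE and 10.7 FPKM in AFE, and fell to 0.465 FPKM in LPO (31.9-fold lower than AFE, edgeR adjusted p = 1.1e-05). CDX2 and SOX2 both rose in AFE against DE and moved apart in LPO against AFE. CDH17, an intestinal cadherin, went the other way from CDX2 and made up most of the LPO sum. It had 13.9 and 13.2 FPKM in LPO against 0.09 and 0.13 in AFE (87.8-fold higher, edgeR adjusted p = 1.2e-06). In DE CDH17 had 0.03 and 0.03 FPKM, and its called rise against PSC was lost with counts divided by 4 (edgeR adjusted p = 0.0707). That call was also lost on log2(FPKM + 1), + 0.5 and + 0.1 values and in a fit of only the 4 libraries compared. In DE against PSC 5 of the 7 rose and 0 fell (1 fell without any 1 AFE library), and 2 rose and 2 fell in each later step. In AFE against DE 1 fell without any 1 AFE library, and in LPO against AFE 1 rose without AFE replicate 1 or any 1 library of DE or LPO.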
